A study of Mus musculus with 6 samples.

Results

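The clustered protocadherins are the cadherin-type adhesion genes that lie side by side on mouse chromosome 18 in an alpha, a beta and a gamma cluster. Members were taken by their symbols (Pcdha, Pcdhb or Pcdhg followed by a member number or letter), with pseudogenes left out, which gave 57 of the 55401 gene rows in the deposited count table. They comprised 14 alpha rows, 22 beta rows and 21 gamma rows. The gamma rows split into 12 of the A type, 6 of the B type and 3 of the C type, and the alpha rows into 12 numbered rows and both C-type genes, Pcdhac1 and Pcdhac2. In GRCm38 the alpha members span chr18:36930184-37187661, the beta members chr18:37264938-37524479 and the gamma members chr18:37661793-37841873.

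RNA from the anterior cingulate cortex, a midline frontal area, was sequenced in bulk from adult mice in 6 libraries, 3 labelled Ythdf1 knockout (KO) and 3 labelled Ythdf1 wild type (WT). YTHDF1 is a cytoplasmic reader of the RNA mark N6-methyladenosine. The labels do not give the allele, the strain, the age in days or weeks, or whether the replicates were different animals. The p-values therefore reflect how far these libraries differed, a spread that may be technical. Count totals were 61792250 to 69848835 in the libraries labelled KO and 65804611 to 66740463 in the libraries labelled WT. Ythdf1 itself was at 58.2, 62.1 and 57.2 CPM (reads counted on a gene, scaled for library depth) in KO replicates 1, 2 and 3, against 55.8, 53.3 and 49.0 CPM in WT replicates 1, 2 and 3, a log2 fold change of 0.17 with an edgeR adjusted p of 0.93. Every KO library was above every WT library, with an edgeR unadjusted p of 0.0313. Ythdf1 mRNA was therefore not lower in the libraries labelled KO, and KO and WT below name the labels of the libraries. Cortical excitatory neuron markers summed to 4376 to 5127 CPM in the libraries labelled KO and 4667 to 5042 CPM in those labelled WT, and all 9 of them were detected.

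Clustered protocadherins are transmembrane proteins that bind the same isoform on an opposing membrane, and neurons use the combination they carry to tell their own branches from those of other cells. In the alpha and gamma clusters each member has its own promoter and large variable first exon, which is spliced to constant exons shared by the whole cluster, whereas beta members are made from their own large exon with no constant part. A neuron switches on a small, largely random choice of alpha, beta, gamma A and gamma B promoters, guided by CTCF, cohesin and DNA methylation, while the C-type promoters are used more evenly. In bulk tissue the choices of very many cells are summed.

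The annotation bears on how these rows can be read. All alpha members hold 2860 bases in common and all gamma members 2116 bases, and the share of a member's merged exon length that it shared with other members had a median of 53.4% in the alpha cluster and 44.6% in the gamma cluster. In the beta cluster only Pcdhb21 and Pcdhb22 overlapped, over 455 bases. How the authors' counting assigned reads from the shared exons is not given in the sources used here, so alpha and gamma counts are uncertain between members. The longest annotated first exon of each member was searched against those of the others. Apart from Pcdhb21 and Pcdhb22, no pair of these exons matched at 95% identity or more over 150 bases. Other exons were not searched, and Pcdhgb1 and Pcdhga4 share 1038 annotated bases beyond those common to the gamma cluster. The symbol Pcdha11 stands on 2 rows, ENSMUSG00000007440 and ENSMUSG00000102206, and the RefSeq table gives Pcdha10 at the place of ENSMUSG00000007440, so these rows are named by their IDs.

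Most of the RNA counted on the family came from the gamma cluster. The 57 rows summed to 1056, 1102 and 1075 CPM in KO replicates 1, 2 and 3, against 1081, 1054 and 1036 CPM in WT replicates 1, 2 and 3. The gamma cluster made up 66.8% ± 1.89 of this sum in the libraries labelled KO and 67.6% ± 0.729 in those labelled WT (SD, n = 3 each). The alpha cluster made up 17.7% to 18.2% in KO and 17.6% to 18.2% in WT, and the beta cluster 15.2% ± 1.78 in KO and 14.4% ± 0.445 in WT. In bulk RNA, fewer cells of a type and less RNA per cell cannot be told apart.

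**Figure D1:**
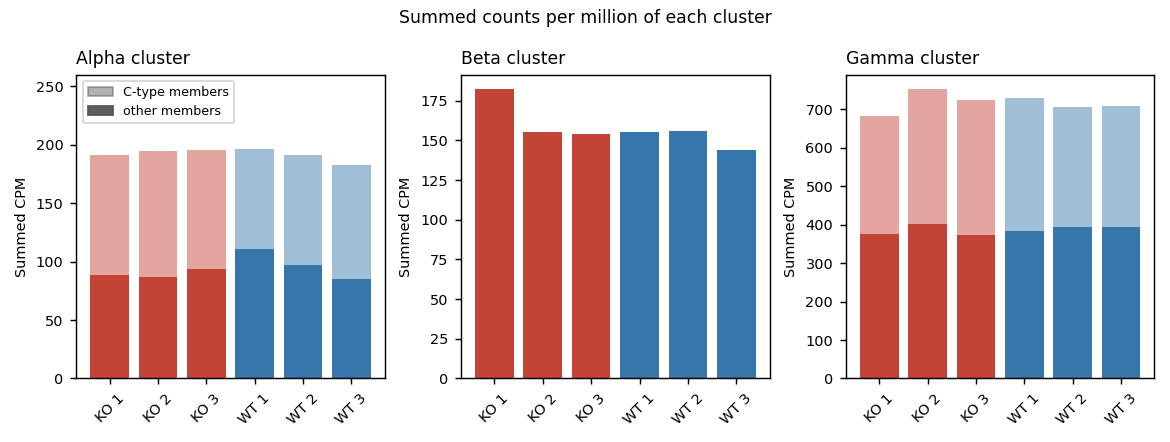
Summed CPM of each cluster in each library, with the C-type genes as light bars and all other members as dark bars, KO libraries left of WT libraries. The gamma total lies at 683 to 752 CPM in KO and 707 to 728 CPM in WT, far above the alpha and beta totals.

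No clustered protocadherin passed the test between genotypes. Of the 57 rows, 56 passed edgeR's filter on low counts and were tested, and 0 of them had an edgeR adjusted p under 0.05, the lowest being 0.881. Among all 20587 genes tested, 0.0% passed in edgeR. limma voom also called 0 members and 0.0% of all genes, and DESeq2 called 0 members beside 0.165% of all genes. At an unadjusted edgeR p under 0.05 there were 2 members higher in KO, Pcdhga8 and Pcdhb9, beside 2.62% of all genes, and 1 member lower, Pcdhga4, beside 2.64%. These 3 are 5.36% of the tested members, close to the 5.26% of all genes tested at that level. limma voom gave 2 higher and 1 lower member at an unadjusted p under 0.05, beside 5.62% of all genes, and DESeq2 gave 3 higher and 0 lower members, beside 5.29%. The libraries did not overlap for 2 members higher in KO, Pcdhb9 and Pcdhgb5, beside 5.84% of all genes, and for 1 lower member, Pcdhga4, beside 5.17%, which makes 3 members beside 11.0% of all genes in either direction. Pcdhb1, the member that was not tested, had 1 count in WT replicate 2 and 0 in the other 5 libraries, where 3 counts would stand for 0.0426 to 0.0489 CPM in KO and 0.0450 to 0.0459 CPM in WT.

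Fitted log2 fold changes (KO over WT) were above 0 for 38 tested members and below 0 for 18, while 49.8% of all genes tested were above 0. In the alpha cluster 7 were above and 7 below 0, with a median of -0.01 and a range of -0.63 to 0.54. In the beta cluster 17 were above and 4 below 0, with a median of 0.11 and a range of -0.08 to 0.31. In the gamma cluster 14 were above and 7 below 0, with a median of 0.04 and a range of -0.66 to 0.42. The median over all genes tested was -0.0006. These cluster counts and medians carry no test, and members of a cluster share libraries and, in alpha and gamma, exons.

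**Figure D2:**
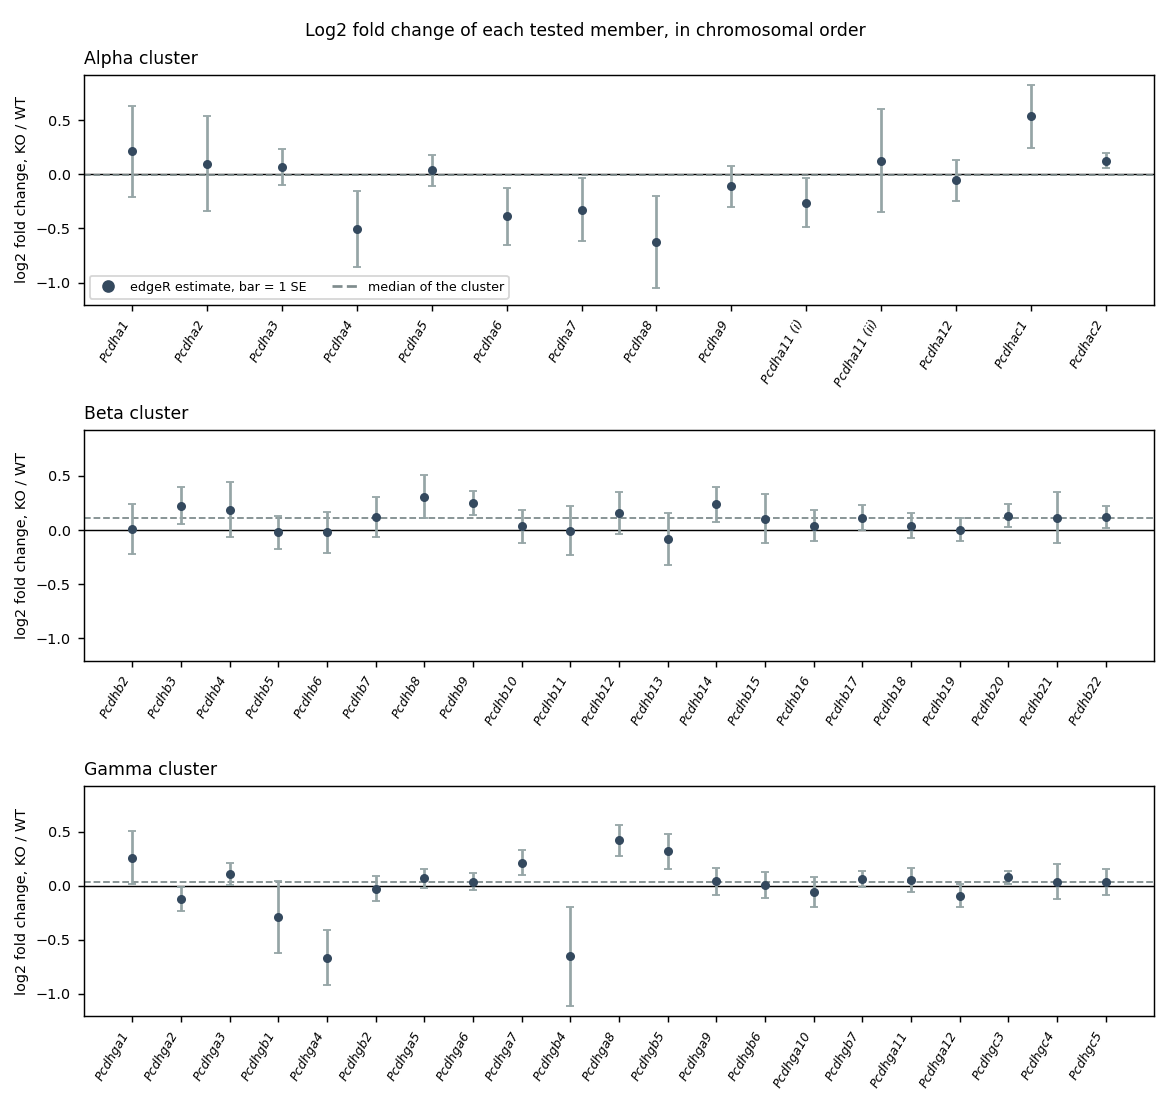
Log2 fold change (KO over WT) from edgeR for the 56 tested members in chromosomal order, with bars of 1 SE and a dashed line at each cluster's median. Pcdha11 (i) is ENSMUSG00000007440 and Pcdha11 (ii) is ENSMUSG00000102206. Most beta members lie just above 0, and the widest SEs are in the alpha cluster and at Pcdhgb4.

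3 of the 5 C-type genes were the most abundant members for their length. Per kilobase of merged exons, Pcdhgc3 averaged 25.6 CPM in KO and 24.3 in WT, Pcdhgc5 22.3 in KO and 21.8 in WT, and Pcdhac2 15.7 in KO and 14.3 in WT, which were the 3 highest members of the family. Pcdhgc4 stood at 4.69 CPM per kilobase in KO and 4.57 in WT, within the range of the gamma A genes, and Pcdhac1 at 2.19 in KO and 1.51 in WT, within that of the numbered alpha genes. The numbered alpha genes had a median of 1.29 CPM per kilobase over the 6 libraries, the beta genes 1.61, the gamma A genes 4.37 and the gamma B genes 3.79. Over the 12 numbered alpha genes, level per kilobase had a Spearman rho of 0.18 with order along the chromosome, and over the 21 tested beta genes a rho of 0.36. Both are descriptions across genes measured in the same libraries.

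Pcdhac2, an alpha isoform that serotonergic axons need to spread evenly through their targets, was at 89.1, 92.2 and 95.5 CPM in KO replicates 1, 2 and 3, against 76.9, 85.2 and 91.3 CPM in WT replicates 1, 2 and 3. WT replicate 3 lay inside the range of the libraries labelled KO, and the log2 fold change was 0.13 ± 0.07 (SE), with an edgeR adjusted p of 0.956. Pcdhac1, the other alpha C-type gene, was at 13.3, 16.02 and 6.33 CPM in KO, against 9.13, 8.80 and 6.64 CPM in WT. KO replicate 3 was the lowest of the 6 libraries and KO replicates 1 and 2 were the highest. The log2 fold change of Pcdhac1 was 0.54 ± 0.29 (SE), with an edgeR adjusted p of 0.956. Without KO replicate 3 it was 0.83 (edgeR unadjusted p = 0.00109, adjusted p = 0.689), and without KO replicate 2 it was 0.26. With the replicate number as a block it was 0.45, with an edgeR unadjusted p of 0.0441 and an adjusted p of 0.996.

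Both alpha C-type genes together gave 102, 108 and 102 CPM in KO replicates 1, 2 and 3, against 86.0, 94.0 and 98.0 CPM in WT replicates 1, 2 and 3. The groups did not overlap, and the log2 ratio of the means was 0.17. The 12 numbered alpha genes summed to 88.6, 86.5 and 94.0 CPM in KO, against 111, 97.4 and 84.9 CPM in WT, which overlapped. The C-type genes thus made up 53.6%, 55.6% and 52.0% of alpha counts in KO, against 43.8%, 49.1% and 53.6% in WT. WT replicate 3 reached the KO range and WT replicate 1 was the lowest. No test was run on these sums, which were looked at after the members' values were known.

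In the gamma cluster the C-type genes made up 44.98%, 46.6% and 48.7% of counts in KO, against 47.5%, 44.4% and 44.4% in WT, and the groups overlapped. Pcdhgc3, which is known to promote dendrite branching through the Wnt pathway protein Axin1, was at 139, 152 and 132 CPM in KO, against 128, 136 and 136 CPM in WT. Its log2 fold change was 0.08 ± 0.06 (SE), with an edgeR adjusted p of 0.973. Pcdhgc5, which binds GABA-A receptors, was at 141, 180 and 189 CPM in KO, against 190, 151 and 156 CPM in WT. KO replicate 1 was the lowest and WT replicate 1 the highest library, so both genotypes spanned almost the same range, and the edgeR adjusted p was 0.991. Pcdhgc4, the gamma isoform needed for the survival of many interneurons, was at 27.9, 19.2 and 31.6 CPM in KO, against 27.1, 26.8 and 22.7 CPM in WT. KO held both the highest and the lowest library, and the edgeR adjusted p was 0.995.

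**Figure D3:**
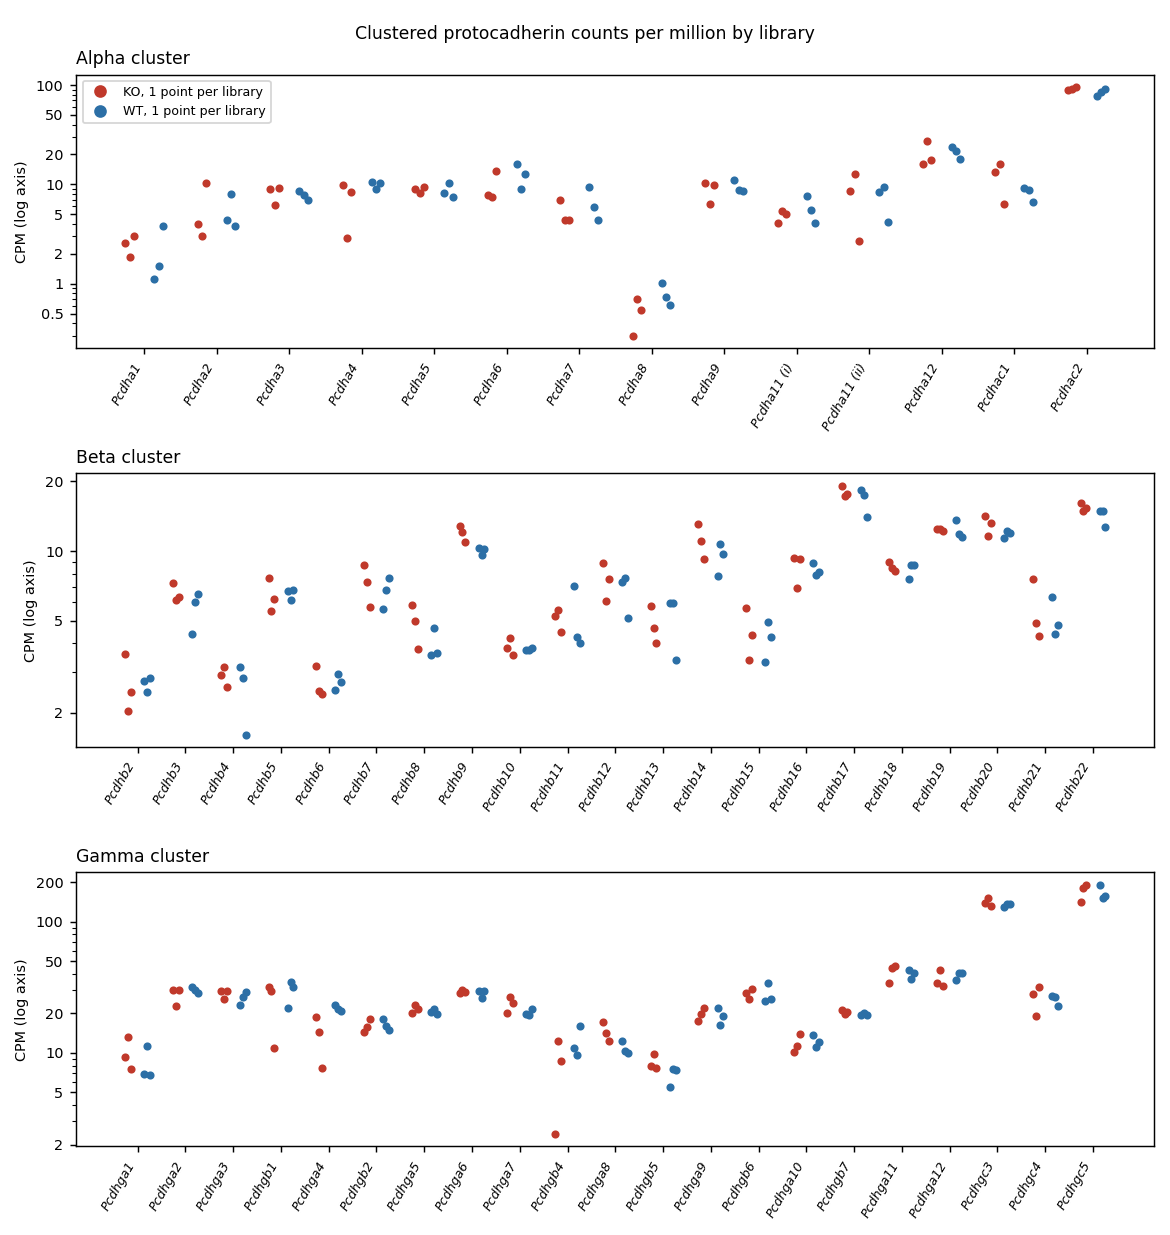
CPM of each tested member in each library on a log axis, by cluster and in chromosomal order, KO points left of WT points for each member. Pcdha11 (i) is ENSMUSG00000007440 and Pcdha11 (ii) is ENSMUSG00000102206. Genotypes overlap for 53 of the 56 members, and the points of the alpha members are the most widely scattered.

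Among the numbered alpha genes, which carry the neuron-to-neuron choice of that cluster, Pcdha12 was the highest per kilobase. It was at 16.1, 27.2 and 17.7 CPM in KO replicates 1, 2 and 3, against 23.9, 21.5 and 17.9 CPM in WT replicates 1, 2 and 3, with KO replicate 2 the highest and KO replicate 1 the lowest. Pcdha8 was the lowest, at 0.298, 0.701 and 0.539 CPM in KO, against 1.02, 0.735 and 0.616 CPM in WT. Its ranges overlapped, and the log2 fold change was -0.63 ± 0.42 (SE), with an edgeR adjusted p of 0.967. It was -0.35 without KO replicate 1 and -0.40 without WT replicate 1. Pcdha1, the next lowest per kilobase, was at 2.56, 1.84 and 3.03 CPM in KO, against 1.13, 1.51 and 3.77 CPM in WT, so that WT alone covered the whole range.

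Pcdha4 was at 9.88, 2.92 and 8.36 CPM in KO, against 10.7, 8.98 and 10.3 CPM in WT. KO replicate 2 stood well below the other 5 libraries, KO replicate 1 lay inside the WT range, and the log2 fold change was -0.50 ± 0.35 (SE), with an edgeR adjusted p of 0.967. Leaving out KO replicate 2 gave -0.13, and leaving out KO replicate 1 gave -0.83. Pcdha6 was at 7.78, 7.46 and 13.6 CPM in KO, against 15.9, 8.97 and 12.7 CPM in WT. KO replicate 3 was among the WT libraries, and the log2 fold change was -0.39 ± 0.26 (SE), with an edgeR adjusted p of 0.967. It was -0.72 without KO replicate 3 (edgeR unadjusted p = 0.0128, adjusted p = 0.723), -0.58 without WT replicate 2 and -0.18 without WT replicate 1. The remaining numbered alpha rows had log2 fold changes of -0.33 to 0.13 with overlapping genotypes.

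The tested beta members ranged from 0.722 to 3.72 CPM per kilobase over the 6 libraries. Pcdhb17 and Pcdhb9 were the highest per kilobase, and Pcdhb6 and Pcdhb4 the lowest of the tested ones. Pcdhb9 was at 12.8, 12.04 and 10.9 CPM in KO, against 10.3, 9.61 and 10.2 CPM in WT. Every KO library was above every WT library, and the log2 fold change was 0.25 ± 0.11 (SE), with an edgeR unadjusted p of 0.0440 and an adjusted p of 0.930. Without KO replicate 1 it was 0.19, with an unadjusted edgeR p of 0.139, and that p was 0.0275 without KO replicate 3 and above 0.05 without any other library. With the replicate number as a block the edgeR unadjusted p was 0.0693. Pcdhb17 was at 19.1, 17.3 and 17.7 CPM in KO, against 18.4, 17.5 and 14.0 CPM in WT. WT replicate 3 was the low library there, and the groups overlapped. Pcdhb4 was at 2.91, 3.16 and 2.59 CPM in KO, against 3.15, 2.83 and 1.61 CPM in WT, again with WT replicate 3 lowest. Pcdhb6 was at 3.18, 2.48 and 2.41 CPM in KO, against 2.52, 2.95 and 2.72 CPM in WT, and its ranges overlapped.

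With each library left out in turn, the small lean of the beta cluster was smallest without KO replicate 1 and next smallest without WT replicate 3. The beta rows summed to 182, 155 and 154 CPM in KO replicates 1, 2 and 3, against 156, 156 and 144 CPM in WT replicates 1, 2 and 3. KO replicate 1 was the highest library for 16 of the 21 tested beta members and the lowest for 0. Without it the median beta log2 fold change was 0.0021 in place of 0.11. WT replicate 1 and WT replicate 3 were each the lowest library for 7 beta members. The median was 0.09 without WT replicate 1 and 0.05 without WT replicate 3. KO replicate 1 had the highest sum of oligodendrocyte markers, 6473 CPM beside 4897 and 4250 CPM in KO replicates 2 and 3 and 3792, 4527 and 3878 CPM in WT. All 8 of these markers had a log2 fold change above 0. At an unadjusted edgeR p under 0.05 there were 6, beside 2.62% of all genes tested higher at that level. Of the 8 markers, 0 had an edgeR adjusted p under 0.05. KO replicate 1 also had the lowest excitatory neuron sum, 4376 CPM beside 5127 and 4692 CPM in KO replicates 2 and 3 and 5042, 4667 and 4963 CPM in WT. That sum was mostly Camk2a and Slc17a7, and other markers of the list did not follow it. Tbr1, at 178 CPM, was highest in KO replicate 1, and Neurod2, Neurod6 and Fezf2 were higher there than in every WT library. The part of these sums in the beta values was not tested.

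The gamma A and gamma B genes held the members with the smallest p in either direction. Pcdhga8 was at 17.1, 14.2 and 12.2 CPM in KO, against 12.3, 10.2 and 10.03 CPM in WT. WT replicate 1 lay just above KO replicate 3, and the log2 fold change was 0.42 ± 0.14 (SE), with an edgeR unadjusted p of 0.0166 and an adjusted p of 0.881. Without KO replicate 1 it was 0.28, with an unadjusted edgeR p of 0.0709. Pcdhgb5, the lowest gamma member per kilobase, was at 7.99, 9.78 and 7.65 CPM in KO, against 5.48, 7.51 and 7.42 CPM in WT. The groups did not overlap, with KO replicate 3 only just above WT replicate 2, and the edgeR unadjusted p was 0.0835 and the adjusted p 0.944.

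Pcdhga4 was at 18.8, 14.5 and 7.70 CPM in KO, against 23.0, 21.4 and 20.7 CPM in WT. Every KO library was below every WT library, KO replicate 3 by far, and the log2 fold change was -0.66 ± 0.26 (SE), with an edgeR unadjusted p of 0.0280 and an adjusted p of 0.917. Without KO replicate 3 it was -0.38, with an edgeR unadjusted p of 0.0168 and an adjusted p of 0.723. Without KO replicate 1 it was -0.97 (edgeR unadjusted p = 0.00224, adjusted p = 0.9997). The edgeR unadjusted p was 0.051 without KO replicate 2, 0.0761 without WT replicate 1, 0.0497 without WT replicate 2 and 0.0506 without WT replicate 3. The unadjusted p was 0.067 in DESeq2 and 0.0136 in limma voom. Pcdhgb4 was at 2.41, 12.3 and 8.60 CPM in KO, against 10.8, 9.70 and 16.1 CPM in WT. KO replicate 1 stood far below the other libraries, and without it the log2 fold change was -0.22 in place of -0.65. It was -0.40 without WT replicate 3 and -1.15 without KO replicate 2 (edgeR unadjusted p = 0.0391, adjusted p = 0.943).

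Pcdhga7 was at 20.01, 26.8 and 23.9 CPM in KO, against 19.8, 19.5 and 21.7 CPM in WT, where only KO replicate 1 fell inside the WT range. Its log2 fold change was 0.21 ± 0.11 (SE), with an edgeR adjusted p of 0.956. Pcdhga1, the next lowest gamma member per kilobase, was at 9.34, 13.1 and 7.49 CPM in KO, against 6.95, 11.3 and 6.76 CPM in WT. Replicate 2 was the highest library in each genotype, and the groups overlapped. The other gamma A and gamma B genes had log2 fold changes of -0.29 to 0.11.

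Both gamma members with the lowest fold changes share sequence with a neighbour beyond the constant exons. Pcdhga4 overlaps Pcdhgb1 over 1038 bases, and Pcdhga8 overlaps Pcdhgb4 over 108 bases. Pcdhgb1, chosen after its values were seen, was at 31.7, 29.6 and 10.8 CPM in KO, against 22.1, 34.4 and 31.8 CPM in WT. KO replicate 3 was thus the lowest library for both Pcdhgb1 and Pcdhga4, and their sum was 50.5, 44.1 and 18.5 CPM in KO, against 45.1, 55.8 and 52.4 CPM in WT. Pcdhgb4 and Pcdhga8 went apart in KO replicate 1, where Pcdhgb4 was lowest and Pcdhga8 highest. Their sum was 19.6, 26.5 and 20.8 CPM in KO, against 23.1, 19.96 and 26.1 CPM in WT, with a log2 ratio of means of -0.05. The part of read assignment in these values was not tested.

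**Figure D4:**
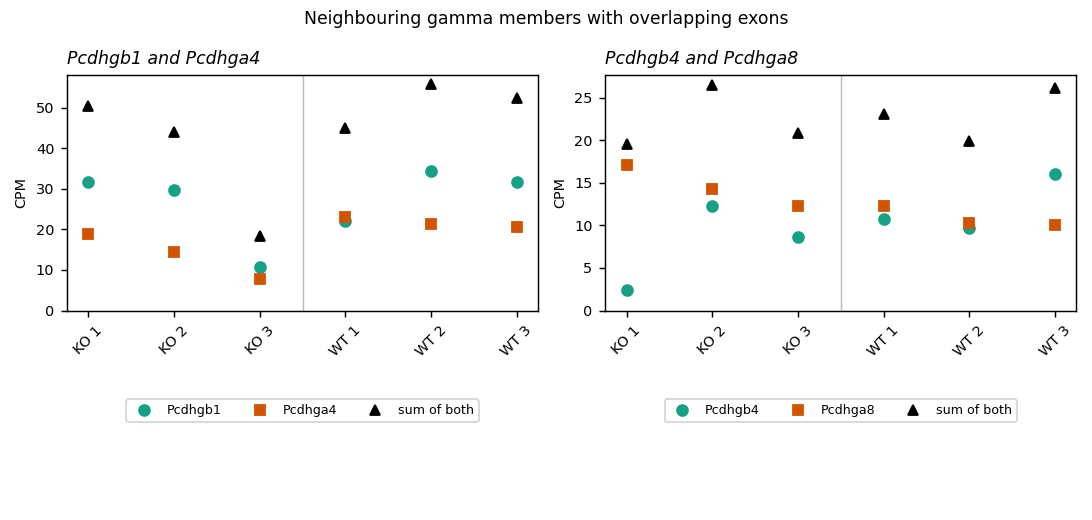
CPM of Pcdhgb1 and Pcdhga4 (left) and of Pcdhgb4 and Pcdhga8 (right) in each library, with triangles for the sum of both genes. KO replicate 3 is lowest for both genes on the left, and on the right the sums of the genotypes overlap.

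Members differed in how much they scattered between libraries of the same genotype. The SD of log2 CPM within genotype had a median of 0.44 over the 12 numbered alpha genes, 0.23 over the 21 tested beta genes and 0.19 over the 21 gamma genes, beside 0.17 over all genes tested. Between 2.69 and 17.3 CPM, the range of the tested beta genes, the median was 0.447 over 9 numbered alpha genes, 0.227 over the 21 beta genes and 0.175 over 5089 tested genes. Counting error alone would give a median SD of about 0.064 for the numbered alpha genes, 0.070 for the beta genes and 0.038 for the gamma genes.

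Set against tested genes within 1.2-fold of their own level, 7 of the 12 numbered alpha genes, 1 of the 2 alpha C-type genes, 6 of the 18 gamma A and B genes and 2 of the 3 gamma C-type genes were above the 90th percentile of within-genotype SD. None of the 21 tested beta genes was. Pcdhgb1 was at percentile 99.5 and Pcdhgb4 at 99.0. The Pcdha11 row ENSMUSG00000102206, at percentile 98.6, had 8.62, 12.8 and 2.68 CPM in KO, against 8.36, 9.52 and 4.21 CPM in WT, and replicate 3 was its lowest library in each genotype. Pcdha2 had 4.00, 3.05 and 10.2 CPM in KO, against 4.42, 7.93 and 3.77 CPM in WT, with KO replicate 3 the highest. At the other end, Pcdhgb7 was at 21.0, 19.9 and 20.6 CPM in KO, against 19.5, 20.1 and 19.3 CPM in WT, the narrowest spread of all tested members. These genes were chosen after their values were seen.

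**Figure D5:**
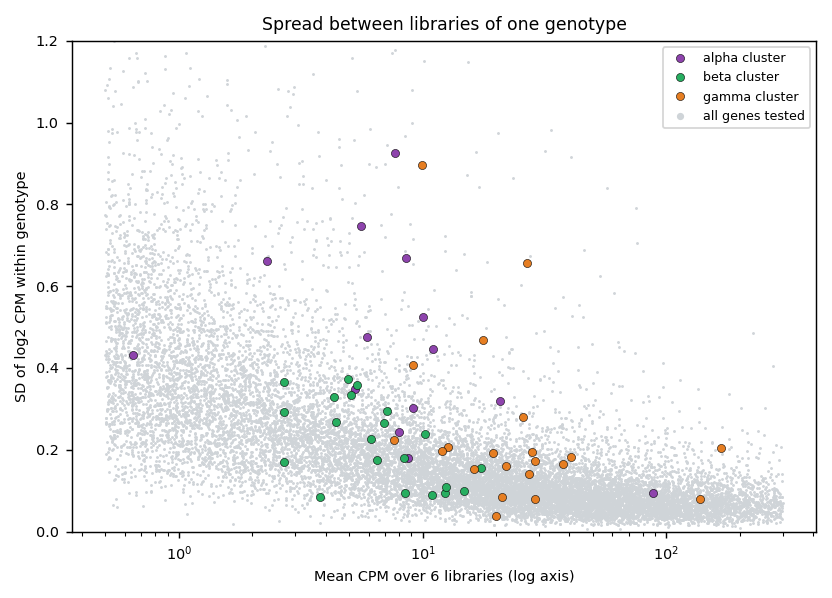
Within-genotype SD of log2 CPM against mean CPM (log axis) for tested genes (grey, those at the levels plotted) and for the tested clustered protocadherins by cluster. At the same level, alpha members lie mostly above beta members, and Pcdhgb1 and Pcdhgb4 stand out among gamma members.

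The alpha total was steadier than its members. Alpha members had a median coefficient of variation within genotype of 31.3%, against 2.73% for the alpha total, which was 191, 195 and 196 CPM in KO replicates 1, 2 and 3 and 197, 191 and 183 CPM in WT replicates 1, 2 and 3. The variance of that total was 0.216 times the summed variances of its members, so members high in a library were offset by members low in it. WT replicate 1 was the highest library for 6 of the 14 alpha members and the lowest for 2, and KO replicate 2 was the highest for 3 and the lowest for 5. Leaving out each library in turn, a check chosen after seeing the data, gave ratios of 0.0695 (without WT replicate 3) to 0.342 (without KO replicate 2), and the ratio was 0.137 without WT replicate 1.

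The gamma total had a coefficient of variation of 3.63%, beside a member median of 13.3%, and a variance ratio of 0.778. That ratio was 0.350 without KO replicate 1, 0.407 without KO replicate 2 and 1.15 without KO replicate 3. The beta total had a coefficient of variation of 7.81%, beside a member median of 14.6%, and a variance ratio of 6.51, so its members moved together across libraries. Without KO replicate 1 the beta ratio was 1.53. Alpha and gamma members share exons and beta members, apart from Pcdhb21 and Pcdhb22, do not. The part of shared exons and of read assignment in these ratios was not tested.

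Antisense genes with counts lie over some members, and whether the counting used strand is not given in the sources used here, so reads of a member and its antisense partner may not be separated. The 3 named here were chosen after their values were seen. Gm10545 covers 2486 bases of the Pcdha11 row ENSMUSG00000102206. It had 67, 33 and 174 counts in KO, against 26, 21 and 95 counts in WT, highest in replicate 3 of each genotype, where the Pcdha11 row was lowest. Gm37446, over 1927 bases of Pcdhb12, had 35, 156 and 75 counts in KO, against 111, 64 and 88 counts in WT. Gm26672, which overlaps 4 gamma members, had 172, 251 and 193 counts in KO, against 59, 139 and 124 counts in WT, with no overlap between groups. Its log2 fold change was 0.97 ± 0.33 (SE), with an edgeR unadjusted p of 0.0161 and an adjusted p of 0.881. The part of these antisense genes in the members' counts was not tested.

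The genes known to control promoter choice in the clusters showed no call either. Of 28 regulators, among them CTCF, cohesin with its loaders and releasers, and enzymes that add or remove DNA methylation, 10 had a log2 fold change above 0 and 18 below, with a median of -0.02 and 0 past an edgeR adjusted p under 0.05. Ctcf, the boundary protein that binds the cluster promoters and enhancers, averaged 76.1 ± 1.94 CPM in KO and 73.8 ± 2.13 CPM in WT (SD, n = 3 each), with an edgeR adjusted p of 0.975. Tet2, which oxidises methylated cytosine, was the only regulator at an unadjusted edgeR p under 0.05. It was at 57.5, 57.8 and 59.3 CPM in KO, against 63.2, 64.1 and 64.8 CPM in WT, without overlap and with an edgeR adjusted p of 0.896. That was 3.57% of the regulators, beside 5.26% of all genes tested.

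Of 29 partners and effectors, among them the kinases and actin regulators of the WAVE complex that bind protocadherin tails, 14 were above and 15 below 0, with a median of -0.004. Of 12 protocadherins outside the clusters, 2 were above and 10 below 0, with a median of -0.07. No gene of either list passed an edgeR adjusted p under 0.05, and 0 had an unadjusted p under 0.05. The authors' deposited table of differing transcripts listed 537 transcripts, of which 0 belonged to a clustered protocadherin. A Pcdh9 transcript was there, listed at an FPKM of 0 in every KO library and at 0.0272, 0.0599 and 0.0606 in WT, with the q-value 0.000415 in the authors' deposited table. In the gene counts Pcdh9 averaged 166 ± 16.2 CPM in KO and 152 ± 18.01 CPM in WT (SD, n = 3 each), a log2 fold change of 0.13.

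Markers of other tissue also differed between the libraries. Leptomeningeal markers summed to 68.1, 59.3 and 76.5 CPM in KO, against 182, 86.1 and 120 CPM in WT, with all 9 lower in KO and 8 of them at an unadjusted edgeR p under 0.05. Striatal projection neuron markers summed to 182, 183 and 176 CPM in KO, against 205, 365 and 193 CPM in WT. Of these 9 markers, 8 were lower and 1 higher in KO, and 3 of the lower ones had an unadjusted edgeR p under 0.05. Endothelial markers summed to 116, 126 and 161 CPM in KO, against 195, 150 and 198 CPM in WT. All 6 were lower in KO, 4 of them at an unadjusted edgeR p under 0.05. Pericyte and smooth muscle markers summed to 116.6, 132.4 and 140.2 CPM in KO, against 174.5, 140.2 and 188.7 CPM in WT. All 5 were lower in KO, each at an unadjusted edgeR p under 0.05. Among all genes tested, 2.64% were lower in KO at that unadjusted level. In each of these marker lists 0 genes had an edgeR adjusted p under 0.05, the lowest being 0.881. Gamma genes are also expressed outside neurons, and the part of these cells in the members' values was not tested.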

How the data were processed

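Polyadenylated RNA was read as paired ends from libraries marked for strand with dUTP, per the labels' protocols. The submitters' processing notes name cutadapt 1.9, HISAT2 2.2.1, StringTie 2.1.6, DESeq2 and edgeR. How reads were counted, with which strand setting, and on which genome build and annotation is not given in the sources used here. Whole-number counts per gene, with no normalization, were used as the authors deposited them. The authors also deposited a transcript table with FPKM values, a log2 ratio of group means, p-values and q-values, from which only the members' entries and a Pcdh9 entry were read.

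The counts were fitted in R 4.3.3 with edgeR 4.0.16 (filterByExpr, TMM factors, quasi-likelihood F-test, no covariate), KO over WT, over all 20587 genes tested, with Benjamini-Hochberg adjustment and a threshold of 0.05. CPM values use library sizes multiplied by TMM factors, and the SE is the log2 fold change divided by the square root of F. Symbols, exons and positions came from GENCODE M21 (GRCm38), which matched 55141 of the IDs, and level per kilobase is CPM divided by merged exon length, shared exons included. Similarity between members was read with blastn 2.17.0. Pcdhgb8, annotated as a polymorphic pseudogene, was left out.

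The members and lists were chosen with earlier results of these data known. Named in full were the C-type genes, the 2 highest and 2 lowest members per kilobase of each cluster and, in each direction, the 5 members with the smallest unadjusted p. A rule to name any member past the threshold or in the deposited transcript table found none. Alternatives were DESeq2 1.42.0, limma 3.58.1 voom, RLE or upper-quartile factors, library totals, no filter or a minimum mean of 1 CPM, a block for the replicate number, and each library left out. All pairs of libraries differed by more than sampling noise.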

Additional observations from a re-analysis of the deposited data

How the results depend on the processing

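No member passed an adjusted p under 0.05 in edgeR, limma voom or DESeq2 under any of the 14 alternatives, and the lowest adjusted p of any member was 0.438, for Pcdhga8 in DESeq2. At an unadjusted edgeR p under 0.05, 2 members were higher in KO and 1 was lower. With each library left out in turn, 1 to 4 members were higher and 0 to 3 lower. Among all genes tested in those runs, 21147 to 21360 a run, 424 to 630 were higher and 357 to 738 lower at that level. DESeq2 gave 0 lower members, beside 562 of 20587 genes tested. The median log2 fold change ranged from 0.0021 to 0.146 in the beta cluster with each library left out, from -0.0211 to 0.0559 in the gamma cluster and from -0.160 to 0.0112 in the alpha cluster, so that only the beta median kept its sign. Of 279 values for the 20 named members, 264 kept their direction, and the 15 that did not all came from leaving out a library. These were Pcdha1 (range -0.0985 to 0.904), Pcdha12 (-0.320 to 0.0878), Pcdhb4 (-0.0548 to 0.376), Pcdhb6 (-0.161 to 0.0474), Pcdhgc4 (-0.120 to 0.218) and Pcdhgc5 (-0.0551 to 0.152), and the cause was not tested. Ranges that kept their sign but moved widely were 0.0602 to 0.185 for Pcdhac2, 0.111 to 0.318 for Pcdhga7, 0.178 to 0.389 for Pcdhgb5, 0.0133 to 0.537 for Pcdhga1, 0.00477 to 0.189 for Pcdhb17 and 0.0206 to 0.119 for Pcdhgc3.

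The labels do not say whether replicate numbers pair the libraries. Same-numbered KO and WT libraries had deviations from their group mean correlated at -0.0976, 0.0458 and 0.0638. Pairs with different numbers gave -0.117 to 0.0681. With 3 libraries a group, these values cannot decide whether the numbers pair animals. With the replicate number as a block, 0 members passed in edgeR, and 2 higher and 1 lower member had an unadjusted p under 0.05. Of all 20587 genes tested, 409 were higher and 507 lower at that level. The higher members were then Pcdhga8 and Pcdhac1, in place of Pcdhga8 and Pcdhb9. With 3 libraries a group and a median within-genotype SD of 0.44 (log2) in the numbered alpha genes, small differences in these genes were not detectable.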
